A study of Mus musculus with 9 samples.

Results

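The genes described here are the matrix metalloproteinases (Mmp), the ADAM and ADAMTS metalloproteinases and the tissue inhibitors of metalloproteinases (Timp), measured in 3 cell populations of mouse trachea that were sorted from its epithelium. They were taken by name: each gene whose annotated symbol starts with Mmp, Adam, Adamts or Timp followed by a digit was a member, except Mmp12, which was left out and is not analysed here. This gave 64 of 18193 measured genes, namely 17 Mmp, 28 Adam, 15 Adamts and 4 Timp genes. Each gene was read from 1 probe set, the one with the highest mean over all 9 arrays, and 30 of the 64 genes had several probe sets to choose from.

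The mice were KRT5-GFP transgenic hemizygotes, in which green fluorescent protein (GFP) is driven by the promoter of keratin 5, a keratin of basal cells. All 3 populations came from such mice and were separated by flow sorting, with GFP and binding of the isolectin GSI-A3B as marks. The GFP+ gate held GFP+ lectin+ cells, the lectin-only gate held GFP- lectin+ cells, and the columnar gate held GFP- lectin- cells. In the labels both populations that bind the lectin are named basal cells, and the third one is named columnar epithelium. Each gate had 3 arrays, which the design text calls biological replicates. The labels do not say whether the replicates came from separate animals, and if they did not, the p-values measure only the spread between these samples. Values are deposited log2 signals of Affymetrix expression arrays, so a difference of 1 is a 2-fold difference.

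Matrix metalloproteinases are secreted or membrane-bound enzymes that cut collagen, gelatin and other extracellular matrix proteins. ADAM proteases mostly sit in the cell membrane, where several of them release growth factors and cytokines from the cell surface, while ADAMTS proteases are secreted and several of them cut proteoglycans such as aggrecan and versican. The Timp proteins bind and block the active site of many of these enzymes, and Timp3 is known to inhibit ADAM and ADAMTS proteases as well. In the airway these enzymes are known from the remodelling of basement membrane and from the traffic of leukocytes.

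Lectin-only replicate 3 stood apart, with a median log2 signal of 5.44 and 73.0% of probe sets above background, against medians of 4.91 to 5.16 and shares of 65.3% to 66.3% on the 8 other arrays. The background level was a log2 signal of 3.56, which 95% of signals from 80 olfactory or vomeronasal receptor probe sets did not exceed. Of the 64 genes, 23 were above background on all 9 arrays, 22 on some and 19 on none. Those above background on all 3 arrays of a gate numbered 26 (40.6%) for GFP+, 32 (50%) for lectin-only and 27 (42.2%) for columnar. Over all 18193 genes the shares were 71.5% for GFP+, 73.0% for lectin-only and 71.9% for columnar. The 19 genes with no signal above background were 10 Adam genes, 6 Adamts genes and 3 Mmp genes (Mmp1a, Mmp1b and Mmp20). The 35 genes above background on at least 3 arrays included all 8 genes that are called below. Mmp13 and Adam19 were among them only through the 3 lectin-only arrays, where they were highest, so this is no support for their calls.

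A gene was called where limma's p, adjusted over all 18193 genes by the Benjamini-Hochberg method, was under 0.05 and the log2 difference was at least 1 in size. In GFP+ against columnar, 2 of the 64 genes were called higher, where the share over all genes was 5.88%, and 2 were called lower, where it was 5.33%. In lectin-only against columnar, 5 were called higher (6.47% over all genes) and 1 lower (2.38%). In GFP+ against lectin-only, 1 was called higher (0.896%) and 2 lower (2.84%). With 1 array left out, the lower count in GFP+ against columnar was 4 without columnar replicate 2. For lectin-only against columnar the higher count was 3 without lectin-only replicate 2 or 3 or columnar replicate 1 or 2, and the lower count was 0 without lectin-only replicate 1 or columnar replicate 3. For GFP+ against lectin-only the higher count was 2 without GFP+ replicate 2 or columnar replicate 1. Taking both directions together, the members' shares of 6.25%, 9.38% and 4.69% stood beside 11.2%, 8.85% and 3.74% over all genes, in the same order of comparisons. An unadjusted limma p under 0.05 was found for 14, 14 and 17 of the 64 genes, beside 4571, 3965 and 2781 of all 18193 genes. The counts at that level given below for groups of members are to be read beside these. The arrays of the gates did not overlap for 16 of the 64 genes in GFP+ against columnar (25%, where 33.6% of all genes did not), for 17 in lectin-only against columnar (26.6%, where 24.6% did not) and for 18 in GFP+ against lectin-only (28.1%, where 18.6% did not). The median differences of the 64 genes were -0.07, 0.12 and -0.15, beside -0.04, 0.07 and -0.10 over all genes. With each array centred on its median, the median of the 64 genes was 0.01 in GFP+ against lectin-only, and the median of all genes was then 0.06. That centring moved the median of all genes to -0.17 in lectin-only against columnar.

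Taken by gene, 8 of the 64 (12.5%, where the share over all genes was 14.8%) were called in at least 1 comparison: the proteases Adamts1, Mmp13, Adam19, Mmp16, Adam8, Adamts9 and Mmp9, and the inhibitor Timp4. The other 56 were called in none. Adamts1 was highest in the GFP+ gate and lowest in the columnar gate, Mmp13 and Adam19 were above background in the lectin-only gate alone, and Timp4 was highest in the columnar gate. In sorted bulk RNA, fewer cells that express a gene and less RNA per cell cannot be told apart.

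**Figure D1:**
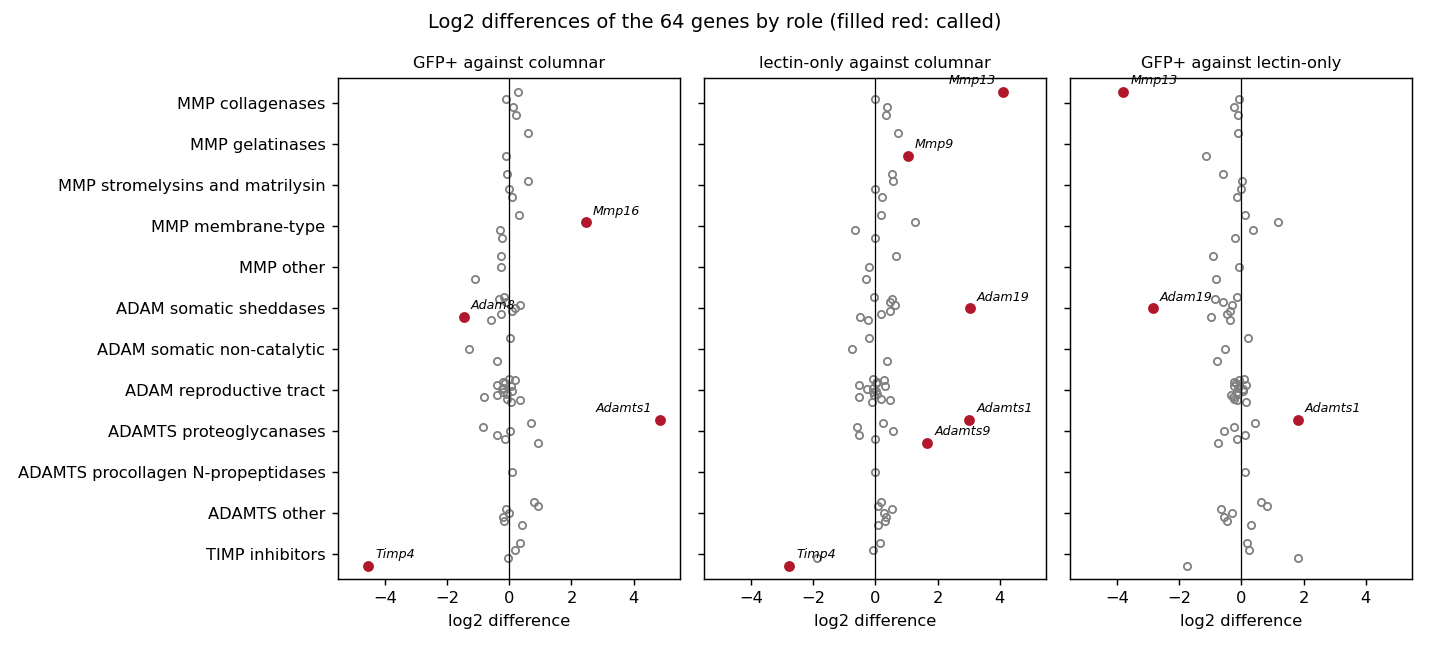
Log2 differences of the 64 genes (horizontal axis) arranged by role (vertical axis), with GFP+ against columnar on the left, lectin-only against columnar in the middle and GFP+ against lectin-only on the right. Each point is 1 gene, and filled red points with names are called genes, of which there are 4, 6 and 3 in the 3 panels; most of the other genes lie near 0.

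The collagenases cut fibrillar collagen, and among the 4 that were measured (Mmp1a, Mmp1b, Mmp8 and Mmp13) only Mmp13, collagenase 3, was called in any comparison. Mmp13 signals were 2.33, 2.87 and 2.29 on the GFP+ arrays, 6.85, 4.95 and 7.09 on the lectin-only arrays and 2.12, 2.03 and 2.46 on the columnar arrays. All 3 lectin-only arrays lay above background and above the 6 other arrays, none of which reached it. The log2 difference was 4.09 ± 0.48 (limma SE) in lectin-only against columnar, adjusted p = 0.000704. It was -3.80 ± 0.48 in GFP+ against lectin-only, adjusted p = 0.00308. Because the dim gates gave only a bound, Mmp13 was at least 6.68-fold higher in the lectin-only gate than in the columnar gate, and the GFP+ gate was at least 6.68-fold lower than the lectin-only gate. Between the GFP+ and columnar gates both means were below background, 2.50 and 2.20, and no fold is given. Mmp1a and Mmp1b were above background on no array, and Mmp8 was on 1 array of the lectin-only gate. A list of 13 macrophage and dendritic cell markers was high on the same arrays as Mmp13, with means of 6.20 to 7.57 on the GFP+ arrays, 10.14 to 10.54 on the lectin-only arrays and 5.90 to 6.87 on the columnar arrays, and its part in the result was not tested. The neutrophil, lymphocyte, fibroblast and endothelial marker lists described below were also highest on the lectin-only arrays, and their part was not tested either.

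Mmp13 is 1 of 8 members that RefSeq places on mouse chromosome 9 in 1 stretch of matrix metalloproteinase genes (Mmp13, Mmp1b, Mmp3, Mmp1a, Mmp10, Mmp8, Mmp20 and Mmp7). It was the only one of the 8 that was called in any comparison. The 100 bases before the annotated start of each gene are shown because these neighbours share promoter letters while only Mmp13 was called between the gates. The sequences are from RefSeq, build GRCm38.p6, in gene orientation, with the stretch for Mmp13 at chr9:7272414-7272513 on the plus strand, that for Mmp1b at chr9:7388027-7388126 on the minus strand, and the others on the plus strand from chr9:7445722-7445821 (Mmp3) to chr9:7691990-7692089 (Mmp7). Capitals mark matches to the AP-1 motif TGANTCA and to the TATA box letters TATAAA, both searched on both strands.
Mmp13: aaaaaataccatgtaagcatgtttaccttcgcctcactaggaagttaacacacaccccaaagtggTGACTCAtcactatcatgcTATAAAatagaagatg
Mmp1b: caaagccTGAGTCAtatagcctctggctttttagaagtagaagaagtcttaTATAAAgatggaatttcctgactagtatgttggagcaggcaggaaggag
Mmp3: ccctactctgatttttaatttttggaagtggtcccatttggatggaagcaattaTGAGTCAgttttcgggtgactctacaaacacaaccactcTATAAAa
Mmp1a: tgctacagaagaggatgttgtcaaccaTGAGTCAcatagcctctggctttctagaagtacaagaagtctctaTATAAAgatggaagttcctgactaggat
Mmp10: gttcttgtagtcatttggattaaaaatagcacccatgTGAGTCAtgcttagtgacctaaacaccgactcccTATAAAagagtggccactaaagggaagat
Mmp8: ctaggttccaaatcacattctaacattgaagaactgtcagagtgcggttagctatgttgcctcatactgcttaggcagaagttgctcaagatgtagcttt
Mmp20: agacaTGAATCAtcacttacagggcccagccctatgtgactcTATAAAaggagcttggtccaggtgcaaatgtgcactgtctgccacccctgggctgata
Mmp7: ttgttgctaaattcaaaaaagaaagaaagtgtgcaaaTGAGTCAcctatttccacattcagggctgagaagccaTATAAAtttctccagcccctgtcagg

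AP-1 letters stood within the printed bases of 7 of the 8 promoters, and so did TATA box letters; Mmp8 had neither. In Mmp13 the AP-1 match began 35 bases and the TATA match 16 bases before the annotated start. In Mmp3 they began 46 and 7 bases before it. Over 250 bases before the start, AP-1 letters were found in 8 of 36 members with a promoter sequence (22.2%), which are these 7 and Adam25, and in 6.85% of all 27025 promoters. TATA box letters were found in 10 of the 36 (27.8%) and in 13.0% of all promoters. The other motifs searched were the Runx letters TGTGGT, found in 7 of the 36 (19.4%) and in 14.2% of all promoters, and the NF-kB motif (3 G, any 5 bases, 2 C), found in 20 (55.6%) and in 45.4%, both on either strand. In the genes printed here no match overlapped one of another motif. The Runx letters were found in 2 of these 8 promoters, in Mmp13 beginning 118 bases and in Mmp1b beginning 204 bases before the start. Neighbouring genes of a family share letters through common ancestry and are not independent of each other, and a match is a description of letters and not of binding.

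Of the 2 gelatinases, which cut denatured collagen and basement membrane collagen, Mmp9 was called in 1 comparison. Mmp9 signals were 3.63, 3.27 and 4.01 on the GFP+ arrays, 4.26, 5.10 and 4.98 on the lectin-only arrays and 4.01, 3.76 and 3.45 on the columnar arrays. The lectin-only arrays lay above all others. The difference was 1.04 ± 0.28 in lectin-only against columnar, adjusted p = 0.0458, close to both thresholds, and -1.14 ± 0.28 in GFP+ against lectin-only, adjusted p = 0.0576, not called. The first call was lost without GFP+ replicate 1, without lectin-only replicate 2 or 3, and without any 1 of the columnar replicates, with differences between 0.88 and 1.30. It was also lost with arrays centred on their medians, with further quantile normalization, with a trended robust fit, with array weights, with only the 6 arrays compared, with the probe set of largest variance and with the mean over all probe sets, where the difference was 0.61 and adjusted p = 0.156. The second was gained without lectin-only replicate 1, and the other Mmp9 probe set differed by 0.19 and -0.42 in the same comparisons and was not called. Mmp2, the other gelatinase, was above background on all 9 arrays and not called, with differences of 0.60 (95% interval -0.20 to 1.39) in GFP+ against columnar and 0.72 (-0.08 to 1.51) in lectin-only against columnar.

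None of the 4 stromelysins and matrilysin (Mmp3, Mmp7, Mmp10 and Mmp11), several of which cut a broad range of matrix proteins, was called by limma. In each comparison 1 of the 4 had an unadjusted p under 0.05. Their differences lay between -0.60 and 0.61. Mmp3 had even signals, from 4.16 to 4.40 on the GFP+ arrays, 4.05 to 4.42 on the lectin-only arrays and 4.08 to 4.41 on the columnar arrays. These lay above the background of 3.56 but close to it, so their evenness says little about expression in the gates. Mmp11 was also above background on all arrays, with 6.50 to 6.96 on the GFP+ arrays, 6.17 to 7.20 on the lectin-only arrays and 6.03 to 6.26 on the columnar arrays.

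Of the 4 measured membrane-type enzymes (Mmp14, Mmp16, Mmp17 and Mmp24), which are anchored at the cell surface, Mmp16 was called in GFP+ against columnar. Its signals were 5.94, 4.74 and 6.34 on the GFP+ arrays, 3.96, 4.30 and 5.18 on the lectin-only arrays and 3.14, 3.14 and 3.38 on the columnar arrays. The GFP+ arrays lay above all columnar arrays, which were all below background, and overlapped those of the lectin-only gate. The difference in GFP+ against columnar was 2.46 ± 0.42, adjusted p = 0.00351, and Mmp16 was at least 4.34-fold higher in the GFP+ gate. The 3 further probe sets of the gene differed there by 0.13, 0.24 and -0.18 and were not called, and the call was lost with the mean over all its probe sets. Mmp16 was not called in lectin-only against columnar (1.26 ± 0.42, adjusted p = 0.0998) or in GFP+ against lectin-only (1.19 ± 0.42, adjusted p = 0.184); without GFP+ replicate 2 both were called. Mmp14, an activator of the Mmp2 proenzyme, was not called, with 0.30 (95% interval -0.32 to 0.92) in GFP+ against columnar and 0.18 (-0.44 to 0.79) in lectin-only against columnar.

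The 3 remaining enzymes of this family were not called by limma either, with 0, 0 and 1 of the 3 at an unadjusted p under 0.05 in GFP+ against columnar, lectin-only against columnar and GFP+ against lectin-only. Mmp23 varied within gates, with means of 8.15 ± 0.94 (SD, n = 3) for GFP+, 8.96 ± 1.00 for lectin-only and 9.27 ± 0.70 for columnar. Mmp20, an enzyme of tooth enamel, was above background on no array.

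**Figure D2:**
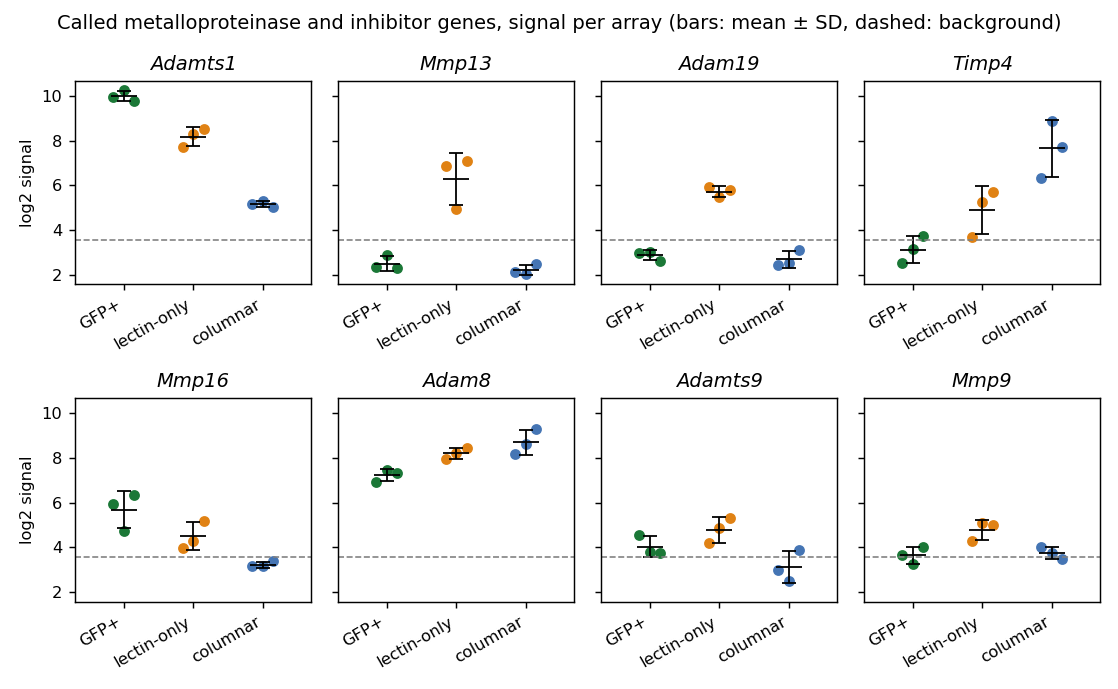
Log2 signal (vertical axis) of the 8 called genes on each array, with the GFP+ gate on the left, the lectin-only gate in the middle and the columnar gate on the right of each panel. Points are arrays, bars are the mean ± SD of 3 arrays, and the dashed line is the background of 3.56; Mmp13 and Adam19 lie above it in the lectin-only gate alone.

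Among the 9 ADAM proteases of somatic tissues, Adam19 and Adam8 were called, in different comparisons. Adam19, which is known to shed neuregulin in cultured cells, had signals of 2.98, 3.01 and 2.60 on the GFP+ arrays, 5.92, 5.46 and 5.77 on the lectin-only arrays and 2.41, 2.50 and 3.11 on the columnar arrays. As for Mmp13, all 3 lectin-only arrays were above background and the 6 other arrays were below it. The macrophage and dendritic cell, neutrophil, lymphocyte, fibroblast and endothelial marker lists were highest on the same 3 arrays, and their part in the result was not tested. The difference was 3.04 ± 0.24 in lectin-only against columnar, adjusted p = 8.62e-05, or at least 4.46-fold. The other difference, in GFP+ against lectin-only, was -2.85 ± 0.24, adjusted p = 0.000352, or at least 4.46-fold lower in the GFP+ gate. Its other probe set differed by 1.78 ± 0.42 and by -1.82 ± 0.42, and with p-values adjusted over all probe sets only the first of these was called (adjusted p = 0.0294 and 0.0591).

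Adam8, a protease known from leukocytes and osteoclasts, was the only ADAM gene called lower in GFP+ against columnar. Its signals were 6.92, 7.46 and 7.34 on the GFP+ arrays, 7.95, 8.23 and 8.44 on the lectin-only arrays and 8.18, 8.62 and 9.29 on the columnar arrays. The GFP+ arrays lay below all other arrays, while those of the lectin-only and columnar gates overlapped. The difference was -1.46 ± 0.29 in GFP+ against columnar, adjusted p = 0.00791, and it was not called in GFP+ against lectin-only (-0.97 ± 0.29, adjusted p = 0.112) or in lectin-only against columnar (-0.49 ± 0.29, adjusted p = 0.392).

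The main growth factor sheddases were measured well above background and were not called. Adam10, which sheds betacellulin and cuts Notch receptors, averaged 11.29 ± 0.25 (SD, n = 3) for GFP+, 11.43 ± 0.04 for lectin-only and 11.46 ± 0.11 for columnar. Its difference was -0.17 (95% interval -0.56 to 0.22) in GFP+ against columnar and -0.03 (-0.42 to 0.36) in lectin-only against columnar. Adam17, the sheddase of tumour necrosis factor and of amphiregulin, had 10.85 to 10.88 on the GFP+ arrays, 10.97 to 11.37 on the lectin-only arrays and 10.41 to 10.60 on the columnar arrays. Its difference of 0.63 ± 0.16 in lectin-only against columnar had an adjusted p of 0.0389 but was under the minimum of 1. The same held for Adam9 in GFP+ against columnar (-0.59 ± 0.16, adjusted p = 0.0365). The probe sets of Adam17 disagreed in lectin-only against columnar, where the others differed by 0.25 and -0.20. With p-values adjusted over all probe sets, the limma adjusted p of the main one was 0.0604. Adam15 and Adam28 were also above background on all arrays and were not called.

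Of the 3 ADAM proteins without a catalytic site, all were above background on all 9 arrays and none was called by limma, with 2, 1 and 1 of the 3 at an unadjusted p under 0.05. Adam23 differed by -0.78 ± 0.16 in GFP+ against lectin-only with an adjusted p of 0.0232, under the minimum of 1. Adam22 differed by -1.28 ± 0.48 in GFP+ against columnar with an adjusted p of 0.123, and was called only without columnar replicate 2. The 16 measured ADAM genes known from testis and epididymis held 10 that were above background on no array and 0 that were on all. None of the 16 was called by limma, with 1, 0 and 0 at an unadjusted p under 0.05, and their differences lay between -0.80 and 0.48.

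Among the ADAMTS genes, Adamts1 gave the largest difference of all 64 genes in the fit to all 9 arrays, ahead of Timp4 (-4.53), whose differences with 1 array left out, -5.19 to -3.91, reached past those of Adamts1 in size. Adamts1, a secreted protease that cuts versican and aggrecan, had signals of 9.96, 10.26 and 9.78 on the GFP+ arrays, 7.74, 8.29 and 8.54 on the lectin-only arrays and 5.17, 5.28 and 5.05 on the columnar arrays. No array of 1 gate overlapped those of another, with the GFP+ gate highest and the columnar gate lowest. It rose by 4.83 ± 0.23 in GFP+ against columnar, a 28.5-fold difference with adjusted p = 3.71e-06. In lectin-only against columnar the difference was 3.02 ± 0.23 (8.13-fold, adjusted p = 8.36e-05), and in GFP+ against lectin-only it was 1.81 ± 0.23 (3.51-fold, adjusted p = 0.00308). With 1 array left out these differences lay between 4.70 and 4.94, between 2.85 and 3.25, and between 1.59 and 1.99, and the gene was called each time. The 100 bases before its annotated start, chr16:85803114-85803213 on the minus strand of chromosome 16 in GRCm38.p6, are shown as those of the gene that was called in all 3 comparisons, with the TATA box letters in capitals.
Adamts1: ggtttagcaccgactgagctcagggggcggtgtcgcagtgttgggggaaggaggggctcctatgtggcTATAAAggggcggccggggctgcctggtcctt

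The TATA box letters of Adamts1 began 32 bases before the start, and its 250 bases held no AP-1 or Runx letters and 1 match to the NF-kB letters, beginning 140 bases before the start. In the RefSeq table Adamts1 is followed by Adamts5, with 0 genes between them. Adamts5, an aggrecan-cutting enzyme, was not called by its main probe set, with 6.39 to 7.13 on the GFP+ arrays, 6.12 to 7.08 on the lectin-only arrays and 6.55 to 8.15 on the columnar arrays. Its probe sets disagreed in lectin-only against columnar, where 2 others above background on all arrays were called lower (-1.57 and -1.07) beside -0.51 for the main one.

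Adamts9, another proteoglycan-cutting member, had signals of 4.55, 3.78 and 3.74 on the GFP+ arrays, 4.17, 4.84 and 5.31 on the lectin-only arrays and 2.98, 2.46 and 3.86 on the columnar arrays. The lectin-only arrays lay above all columnar arrays and overlapped the GFP+ ones. It was called in lectin-only against columnar (1.67 ± 0.41, adjusted p = 0.0276), and the call was lost without lectin-only replicate 2 or 3 and without columnar replicate 1 or 2, with differences between 1.35 and 2.05. It was also lost with array weights, with only the 6 arrays compared and with the mean over all probe sets, where the difference was 0.41 and adjusted p = 0.311. Both further probe sets of Adamts9 were below background on all arrays. The other members of this role group, Adamts4, Adamts8, Adamts15 and Adamts20, were not called, and Adamts15 was the one above background on all arrays, with 8.65 to 9.05 on the GFP+ arrays, 7.83 to 8.66 on the lectin-only arrays and 7.74 to 8.61 on the columnar arrays. Adamts3, which trims procollagen, was above background on no array. Of the 7 remaining ADAMTS genes, none was called by limma, with 2, 0 and 4 at an unadjusted p under 0.05 (4571, 3965 and 2781 of all 18193 genes). The nearest was Adamts12 in GFP+ against columnar (0.91, adjusted p = 0.0507, past neither threshold), which was called without GFP+ replicate 1; Adamts10 was called there without GFP+ replicate 3.

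Of the 4 inhibitors, Timp4 was the one that was called. It had signals of 2.50, 3.14 and 3.72 on the GFP+ arrays, 3.67, 5.27 and 5.71 on the lectin-only arrays and 6.34, 8.90 and 7.72 on the columnar arrays. The columnar arrays lay above all others, while the GFP+ and lectin-only arrays overlapped by a narrow margin. Timp4 fell by 4.53 ± 0.68 in GFP+ against columnar, which is 23.1-fold as fitted, with adjusted p = 0.00172 and with 2 of the 3 GFP+ arrays below background. In lectin-only against columnar it fell by 2.77 ± 0.68, adjusted p = 0.0292, and that call was lost with only the 6 arrays compared, without lectin-only replicate 1 and without columnar replicate 2 or 3, with differences between -3.43 and -2.15. In GFP+ against lectin-only the difference was -1.76 ± 0.68, adjusted p = 0.237. The other Timp4 probe set also fell in GFP+ against columnar (-1.56 ± 0.43, adjusted p = 0.0499 over all probe sets), and it was not called in lectin-only against columnar (-0.87 ± 0.43).

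Timp3, an inhibitor that stays bound to the matrix, had signals of 11.44, 10.22 and 10.77 on the GFP+ arrays, 9.14, 8.29 and 9.50 on the lectin-only arrays and 12.14, 10.20 and 10.20 on the columnar arrays. The lectin-only arrays lay below all 6 others, and the GFP+ and columnar arrays overlapped. The difference was -1.87 ± 0.55 in lectin-only against columnar (adjusted p = 0.0631) and 1.83 ± 0.55 in GFP+ against lectin-only (adjusted p = 0.115), neither of which was called. All 4 Timp3 probe sets gave differences between -2.17 and -1.74 in lectin-only against columnar. That comparison was called with arrays centred on their medians, with further quantile normalization and with a trended robust fit, and GFP+ against lectin-only was called without columnar replicate 1. GFP+ against columnar differed by -0.04 (95% interval -1.28 to 1.19).

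Timp1, an inhibitor that many cells secrete, had signals of 6.09, 5.83 and 6.75 on the GFP+ arrays, 6.09, 5.53 and 6.47 on the lectin-only arrays and 5.57, 5.38 and 6.71 on the columnar arrays. The 3 gates overlapped throughout, and the difference was 0.34 (95% interval -0.55 to 1.22) in GFP+ against columnar and 0.14 (-0.74 to 1.03) in lectin-only against columnar. Timp2, which also takes part in the activation of the Mmp2 proenzyme by Mmp14, had 11.58, 11.13 and 10.94 on the GFP+ arrays, 10.79, 11.08 and 11.05 on the lectin-only arrays and 11.24, 10.86 and 11.01 on the columnar arrays. It overlapped as well, with narrower intervals: 0.18 (-0.29 to 0.65) in GFP+ against columnar, -0.06 (-0.53 to 0.41) in lectin-only against columnar and 0.24 (-0.23 to 0.71) in GFP+ against lectin-only.

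**Figure D3:**
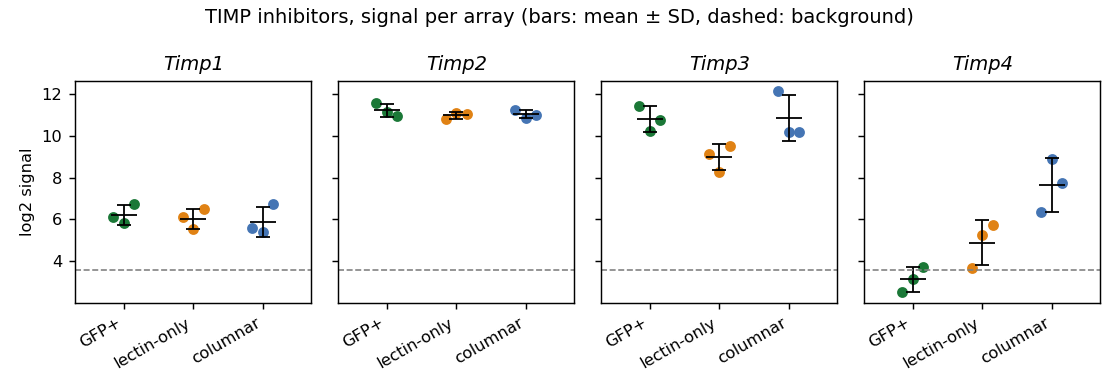
Log2 signal (vertical axis) of Timp1, Timp2, Timp3 and Timp4 on each array, with the GFP+ gate on the left, the lectin-only gate in the middle and the columnar gate on the right of each panel. Points are arrays, bars are the mean ± SD of 3 arrays, and the dashed line is the background of 3.56; Timp4 is highest in the columnar gate, Timp3 is lowest in the lectin-only gate, and Timp1 and Timp2 overlap in all gates.

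Other genes that regulate, activate or are cut by these enzymes were described in 6 lists. The counts called in these lists and in the marker lists below stand beside the shares over all genes. Those were 5.88% higher and 5.33% lower in GFP+ against columnar, and 6.47% and 2.38% in lectin-only against columnar. In GFP+ against lectin-only they were 0.896% and 2.84%. Of 21 regulators, 5 were called higher and 1 lower in GFP+ against columnar, and 4 higher and 0 lower in lectin-only against columnar (1 lower without lectin-only replicate 3). The ADAMTS-like genes Adamtsl3 and Adamtsl5, which resemble ADAMTS proteases but lack the protease domain, rose by 3.38 ± 0.33 (adjusted p = 0.000146) and by 3.19 ± 0.24 (adjusted p = 4.08e-05) in GFP+ against columnar. Tspan15, a tetraspanin that carries Adam10 to the cell surface, rose by 2.32 ± 0.23 in lectin-only against columnar, adjusted p = 0.000282. Between the GFP+ and lectin-only gates, 2 regulators were called higher and 1 lower. There Papln, a papilin-type matrix protein related to the ADAMTS proteases, rose by 1.79 ± 0.28 (adjusted p = 0.00806), and Tspan33, another tetraspanin partner of Adam10, fell by 2.00 ± 0.34 (adjusted p = 0.0110), a call that was lost without GFP+ replicate 1.

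Of 4 proprotein convertases, which remove the prodomain of many of these proteases, Pcsk5 rose by 4.42 ± 0.78 in GFP+ against columnar, adjusted p = 0.00428. In lectin-only against columnar Pcsk5 and Pcsk6 were called (2.94 and 1.12), but the count of 2 was 0 or 1 without any 1 of the GFP+ replicates, lectin-only replicate 1 or 3, or columnar replicate 1 or 2. Bmp1, the procollagen C-proteinase and 1 of 5 astacin proteases, rose by 2.68 ± 0.32 in GFP+ against columnar, adjusted p = 0.000433. It also rose by 1.39 ± 0.32 in lectin-only against columnar (adjusted p = 0.0216), a call lost without lectin-only replicate 1 or 3 or columnar replicate 1 or 2.

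In the plasminogen activator system, which feeds into the activation of Mmp proenzymes, 2 of 5 measured genes were called higher and 2 lower in GFP+ against columnar. Serpinb2, an inhibitor of plasminogen activators, differed by 2.35 ± 0.67 (adjusted p = 0.0461), and Plat, the tissue activator, by -2.31 ± 0.63 (adjusted p = 0.0360). Without any 1 of the 9 arrays the higher count was between 0 and 1, and the lower count was between 1 and 2. For lectin-only against columnar, Serpinb2 rose by 3.73 ± 0.67 (adjusted p = 0.00634) and Plau, the urokinase activator, was at least 1.70-fold higher (adjusted p = 0.00164), and the count of 2 called higher stayed at 2 whichever array was left out.

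The next list held 8 matrix proteins, namely proteoglycans and Comp. Of these, Dcn (decorin) rose by 4.36 ± 0.21 in GFP+ against columnar (adjusted p = 3.71e-06) and by 2.51 ± 0.21 in GFP+ against lectin-only (adjusted p = 0.000355). Bgn (biglycan) fell by 1.40 ± 0.21 in GFP+ against lectin-only (adjusted p = 0.00742). Without lectin-only replicate 2 the count of genes of this list called lower there was 2 in place of 1. Of 11 measured ligands that are shed from the cell surface, 3 were called higher in lectin-only against columnar, among them the EGF receptor ligands Ereg (4.65 ± 0.67, adjusted p = 0.00193) and Epgn (3.18 ± 0.57, adjusted p = 0.00602). In GFP+ against columnar Ereg differed by 2.46 ± 0.67 (adjusted p = 0.0360), the 1 call of the list there, and the count was 0 without GFP+ replicate 2 or 3, lectin-only replicate 1 or 3, or any 1 of the columnar replicates. Lower in GFP+ against lectin-only were Tnf (-2.46 ± 0.37, adjusted p = 0.00669) and Btc (3.99-fold lower, adjusted p = 0.0478), and the count of 2 was 1 without any 1 of the lectin-only or columnar replicates.

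**Figure D4:**
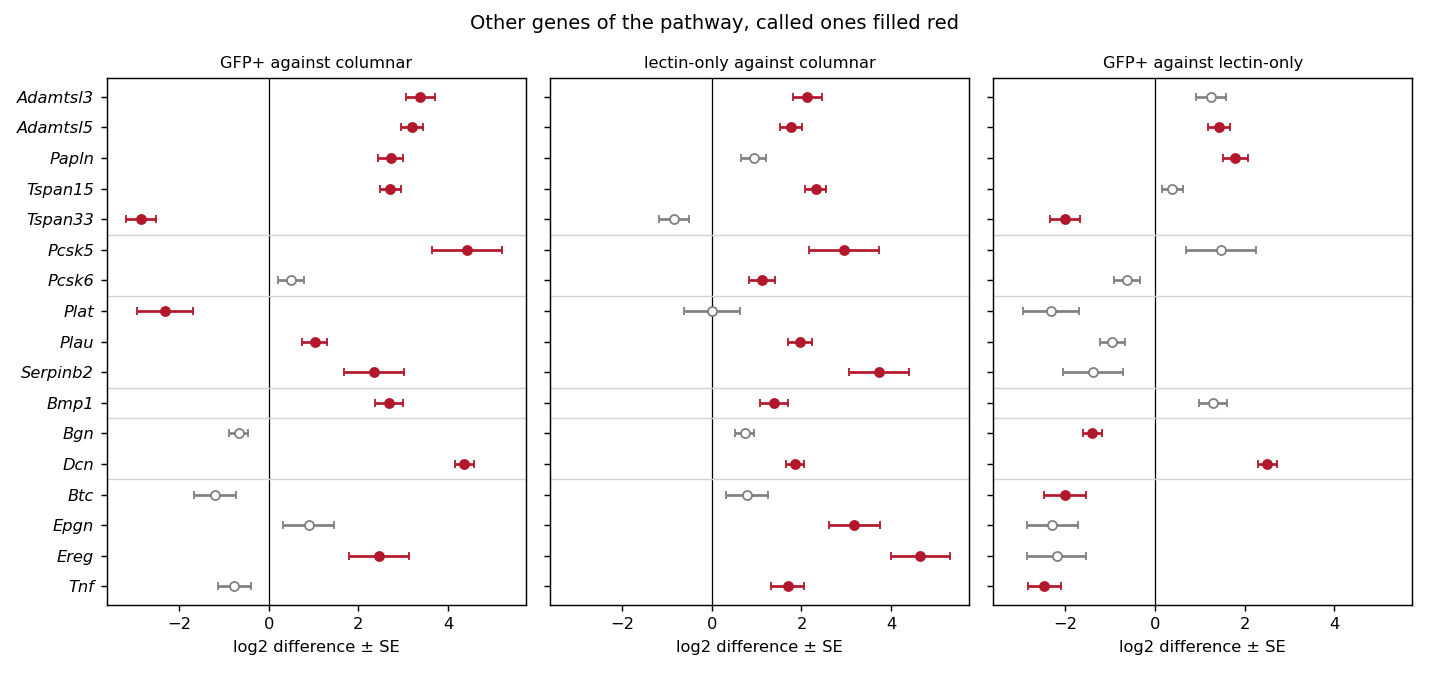
Log2 differences ± SE (horizontal axis) of other genes of the pathway (vertical axis), with GFP+ against columnar on the left, lectin-only against columnar in the middle and GFP+ against lectin-only on the right. Filled red points are called genes; Adamtsl3, Adamtsl5, Pcsk5, Bmp1 and Dcn are called higher in both lectin-binding gates than in the columnar gate.

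The labelled cell types were set against marker lists. All 10 basal cell markers were called higher in both lectin-binding gates than in the columnar gate, and all 10 ciliated cell markers were called lower in GFP+ against columnar. Markers of macrophages and dendritic cells moved with the lectin-only gate, in which Mmp13, Adam19, Mmp9, Adamts9 and Adamts1 were called higher and Timp4 lower against columnar: 12 of 13 measured markers were called higher in lectin-only against columnar and 11 of 13 lower in GFP+ against lectin-only. In GFP+ against columnar 3 were called higher (H2-Aa, H2-Ab1 and Cd74, which serve antigen presentation) and 1 lower (Lyz2, a lysozyme), and the higher count was 0 to 4 with 1 array left out, moved by over 1.5 times by every array but GFP+ replicate 1 and columnar replicate 3. None of the 13 was below background on all arrays of any gate. C1qb, a complement component of macrophages, differed by 6.32 ± 1.10 and Cd83, a marker of mature dendritic cells, by 5.80 ± 0.68 in lectin-only against columnar. The part of these cells in the results for these 6 genes was not tested.

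Other lists moved less. For neutrophils, 2 of 7 measured markers, S100a8 and S100a9, were called higher in both lectin-binding gates than in the columnar gate, while Cxcr2 was below background in all gates. The neutrophil list averaged 5.42 to 5.84 on the GFP+ arrays, 6.39 to 6.90 on the lectin-only arrays and 4.97 to 5.24 on the columnar arrays. For lymphocytes the list averaged 3.32 to 3.93 on the GFP+ arrays, 4.14 to 5.21 on the lectin-only arrays and 3.04 to 3.26 on the columnar arrays, and Cd3g and Cd3e were called higher in lectin-only against columnar.

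Of 12 fibroblast markers, a cell type known to make many of these enzymes, 2 were called higher and 4 lower in GFP+ against columnar, and 3 higher and 0 lower in lectin-only against columnar. In GFP+ against lectin-only, 1 was called higher and 5 lower (3 to 4 lower with 1 array left out). The markers disagreed in GFP+ against columnar, where Dcn was called higher (4.36 ± 0.21) and Col3a1 lower (-3.88 ± 0.44). The fibroblast list averaged 4.64 to 5.01 on the GFP+ arrays, 5.69 to 6.20 on the lectin-only arrays and 5.05 to 5.55 on the columnar arrays. Lum was below background in all gates. The smooth muscle list averaged 4.58 to 5.19 on the GFP+ arrays, 5.06 to 5.76 on the lectin-only arrays and 3.79 to 4.03 on the columnar arrays. In GFP+ against columnar 2 of its 8 markers (Acta2 and Mylk) were called higher, beside Adamts1 and Mmp16. That count was 1 to 3 with 1 array left out, where GFP+ replicate 1 and columnar replicate 2 moved it. In lectin-only against columnar 3 of the 8 were called higher, among them Acta2 (3.26 ± 0.53) and Mylk (3.11 ± 0.63). None was called in GFP+ against lectin-only, while Adamts1 and Mmp16 had their highest means in the GFP+ gate. The endothelial list averaged 3.60 to 3.87 on the GFP+ arrays, 4.46 to 4.74 on the lectin-only arrays and 3.50 to 3.81 on the columnar arrays. The part of these cell types in the differences of Mmp13, Adam19, Adamts1, Mmp16 and Timp4 was not tested.

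Ciliated and club cell markers moved with the columnar gate, in which Timp4 and Adam8 had their highest means. The ciliated list averaged 4.42 to 5.43 on the GFP+ arrays, 5.94 to 7.01 on the lectin-only arrays and 8.25 to 8.71 on the columnar arrays. The club and secretory list averaged 10.25 to 11.07 on the GFP+ arrays, 11.54 to 11.80 on the lectin-only arrays and 12.37 to 12.54 on the columnar arrays, and 5 of its 10 markers were called lower in GFP+ against columnar. The mast cell and cartilage lists averaged at most 5.01 on every array, but single markers differed between gates. Kit, a mast cell marker, was called higher in GFP+ against columnar (3.39 ± 0.26) and in lectin-only against columnar (2.43 ± 0.26). It was the only 1 of the 8 mast cell markers called there, and the list's median differences were -0.12 and 0.22. Cpa3, Mcpt4, Mcpt8, Fcer1a and Ms4a2 were below background on all arrays of the GFP+ and columnar gates. Chad, a cartilage marker, was called lower in GFP+ against columnar (-1.78 ± 0.24), the only 1 of 10 called there. The part of the cell types of these lists in the results was not tested.

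**Figure D5:**
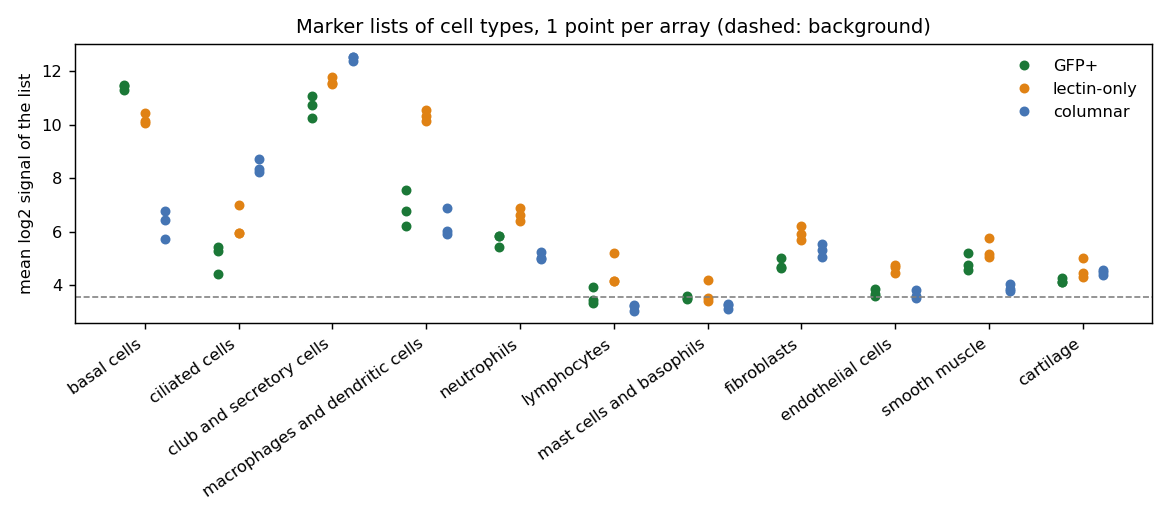
Mean log2 signal of 11 marker lists (vertical axis) on each array, with the GFP+ gate on the left, the lectin-only gate in the middle and the columnar gate on the right within each list. Each point is 1 array and the dashed line is the background of 3.56; the macrophage and dendritic cell list lies between 10.14 and 10.54 on the lectin-only arrays and at 7.57 or below on the others.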

How the data were processed

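The deposited table holds log2 probe set signals, 1 column per array, made by the authors with RMA (background correction, normalization and probe summary), per the submitters' processing notes; software and version are not given in the sources used here. Of 45101 probe sets, 34945 had 1 gene symbol in the platform annotation, and 34741 of these were updated through RefSeq (GRCm38.p6). Left out were 932 with several symbols, 9160 without one and 64 controls. Group means were fitted to all 9 arrays with limma 3.58.1 in R 4.3.3 (lmFit, eBayes, no trend, not robust, with 6 residual and 3.46 prior degrees of freedom). The code of the fit was also run on simulated data. These were drawn without differences in brightness between arrays, so that run does not bear on the calls given here. Errors of differences are limma SEs; 3 arrays per gate limit the precision (median SE 0.24). A gene below background on all arrays of a gate gives a bound, with the higher of background and its own signal in place of that gate's value. Named genes are all called members, Timp1 to Timp4, Mmp2, Mmp9, Mmp14, Adam10 and Adam17, and up to 2 called genes per further list and comparison; other named members are described after their values were seen. The members and lists were chosen with earlier results of these data known. Promoters are from the RefSeq table, which held 36 of the 64 genes. Alternatives covered scaling, moderation, array weights, replicate numbers, arrays fitted, filters, probe set choice, symbols and single arrays left out.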

Additional observations from a re-analysis of the deposited data

How the results depend on the processing

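The 37 results for named genes were recomputed under 20 alternatives: 705 values kept their side of the threshold, 26 lost a call, 9 gained one and 0 reversed. Many of the 37, such as those of Timp1 and Timp2, were not called in the fit reported and had no call to lose. Adamts1 (all 3 comparisons), Mmp13 and Adam19 (both comparisons with the lectin-only gate), and Adam8 and Timp4 in GFP+ against columnar kept their calls under every alternative run. Not every alternative could move them. The platform symbols changed no member's symbol, and dropping the minimum difference cannot lose a call. Adamts1, Mmp13 and Adam8 had 1 probe set each, so the choice of probe set left their values as they were. Of the members called in GFP+ against columnar, the higher count was 1 with the mean over all probe sets (2 in the fit reported), and the lower count was 2 to 4 with 1 array left out. In lectin-only against columnar the higher count of 5 was 3 with array weights, with only the 6 arrays compared and with the mean over all probe sets, and 3 to 6 with 1 array left out. The lower count of 1 there was 2 with arrays centred on their medians, with further quantile normalization, with a trended robust fit and with the probe set of largest variance, 0 with only the 6 arrays, and 0 to 1 with 1 array left out. In GFP+ against lectin-only the higher count of 1 was 1 to 2 with 1 array left out. The cause was not tested for the settings that kept all arrays; the others used fewer samples.

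With the replicate number as a block, the lower count in lectin-only against columnar was 2 and the higher count in GFP+ against lectin-only was 2. It added Timp3 (adjusted p = 0.0130) and Mmp16 in lectin-only against columnar, where Mmp9 lost its call, and Timp3 (adjusted p = 0.0277) and Timp4 (adjusted p = 0.0334) in GFP+ against lectin-only. The labels do not say whether the numbers pair the samples. Correlations of same-numbered deviations were 0.23, 0.04 and 0.19 for GFP+ and columnar, -0.05, -0.06 and 0.09 for lectin-only and columnar, and -0.07, 0.33 and 0.33 for GFP+ and lectin-only. The highest correlations with another number were -0.11, 0.01 and 0.09, then 0.03, 0.17 and 0.04, and then 0.14, -0.09 and 0.17, in the same order. Same-numbered values were higher throughout for GFP+ and columnar, but not throughout for the other pairs of gates. The numbers were therefore not shown to pair the samples, and the block is given as an alternative only.

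Arrays were not on 1 common distribution, since replicate 3 of the lectin-only gate was brighter. With each array centred on its median, called genes over all 18193 were 974 higher and 699 lower in lectin-only against columnar (1177 and 433 as deposited) and 256 higher and 457 lower in GFP+ against lectin-only (163 and 517 as deposited). Differences from a gate below background are bounds, and 3 arrays per gate leave wide intervals. Probe sets of 1 gene can disagree, as for Mmp16, Mmp9, Adamts5 and Adam17.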
